A study of Diospyros kaki with 21 samples.

Results

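A set of 46 transcripts of persimmon flesh was lower than in air-kept fruit directly after a day in high CO2 and higher at 4 d. It is described here across all treatments. They were chosen by their measured levels: a unigene, an assembled transcript sequence, was taken where the group mean of CK 1 d was at least 5 times that of CO2 1 d and the mean of CO2 4 d was at least 5 times that of CK 4 d. An amount of 0.5 FPKM (fragments normalized for transcript length and library depth) was added to each mean, the 3 CO2 libraries were not allowed to overlap the 3 CK libraries on either day, and a hit in the NR protein database was required. Of 261970 unigenes, 147691 had an NR description, and 46 of these met the whole rule. The 1 d condition alone was met by 1459 of them (0.988%) and the 4 d condition alone by 1531 (1.04%). These shares and the CO2 and CK values at 1 d and 4 d follow from the choice and are given as a description, without a test.

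Fruit of the astringent persimmon (Diospyros kaki) cultivar 'Jingmianshi' were kept in air-tight containers for 1 d with high CO2 (CO2), with high CO2 and 1-methylcyclopropene (CO2+1-MCP) or with air (CK), and were then stored in air. RNA of the flesh was sequenced in 7 groups of 3 libraries, named A, B and C: untreated fruit at 0 d (CK 0 d) and the 3 treatments at 1 d and at 4 d. The study gives the replicates as biological, and the number of fruit behind each library was not found in the labels or methods. The design sets fruit that lose astringency under CO2 beside fruit in which ethylene perception was blocked at the same time, and beside fruit kept in air.

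1-MCP is a gas that binds ethylene receptors and blocks the perception of ethylene, the hormone that drives ripening in many fruits. High CO2 deprives the flesh of oxygen, and in persimmon the acetaldehyde formed under these conditions makes the soluble tannins insoluble. Softening of fruit flesh is tied to enzymes that loosen the cell wall. Xyloglucan endotransglycosylase/hydrolases (XTH) cut and rejoin the xyloglucan chains that tether cellulose, beta-D-xylosidases release xylose from hemicelluloses, and polygalacturonases and pectate lyases cut the pectin between cells. Abscisic acid, made through 9-cis-epoxycarotenoid dioxygenase (NCED), and ethylene response factors (ERF) also take part in ripening.

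Expected counts summed to between 14644843 and 24943140 per library. Library differences touched the values below. Library B of CO2+1-MCP 4 d stood apart from its replicates, with a Spearman correlation across unigenes of 0.638 with A and 0.612 with C, where A and C gave 0.746 and the other groups 0.692 to 0.749. Within CO2 4 d, library A was the highest for 40 of the 46 unigenes, and the order A above B above C held for 25. The summed FPKM of 42 unigenes named for peel epidermis proteins had this order, with 1110 in A, 412 in B and 189 in C. The sum was 11.5 to 17.9 in the CK libraries and 34.2 to 43.6 in CO2 1 d. In CO2+1-MCP it was 33.4 to 47.0 at 1 d and 25.7 to 33.7 at 4 d. Of these 42, 19 reached a mean of 1 FPKM in a group. In all CO2 4 d libraries, 12 were above all CK 4 d libraries, 2 were below all of them and 4 were at 0. A glycerol-3-phosphate 2-O-acyltransferase 6 unigene made 41.3% of the sum in CO2 4 d. A list of 32 seed storage and oleosin unigenes summed to 420 to 1660 FPKM in CO2 4 d, again highest in A. Elsewhere it summed to 71.1 to 118. A 13S globulin unigene made 89.1% of this sum in CO2 4 d. Only 3 of the 32 were above all CK 4 d libraries there, 1 was below all of them and 8 were at 0. The 84 unigenes of a vascular list gave 58.4 to 148 in CO2 4 d and 91.1 to 211 elsewhere. In CO2 4 d, 4 of the 84 were above all CK 4 d libraries, 6 were below all of them and 16 were at 0. A cellulose synthase-like protein G2 unigene made 33.9% of the sum there. In CO2 4 d, the 13 anthocyanidin and leucoanthocyanidin reductase unigenes of tannin cells gave 95.0 to 155. They gave 63.5 to 90.0 in CO2+1-MCP 4 d and 15.9 to 55.2 elsewhere. Of these 13, 6 reached a mean of 1 FPKM in a group, 2 were at 0 in CO2 4 d, and a leucoanthocyanidin reductase unigene made 71.5% of the sum there. Unigenes with a hit in microbes summed to at most 16.2 FPKM in any library. The part of these shifts in the 4 d levels of the 46 unigenes was not tested.

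Together, the 46 unigenes took 0.216% to 0.312% of the counts in the CK 0 d libraries, 0.201% to 0.286% in CK 1 d and 0.148% to 0.158% in CK 4 d. In CO2 1 d they took 0.0111% to 0.0166%, and in CO2 4 d 1.01% to 3.09%. The CO2+1-MCP libraries, which did not enter the choice, held 0.0201% to 0.0311% at 1 d and 0.231% to 0.417% at 4 d. The plot of summed counts by library shows 3 separate levels: both CO2 treatments low at 1 d, CK and CO2+1-MCP 4 d in the middle, and CO2 4 d on top. These are levels of a sum in which unigenes with many counts weigh most. In CO2 4 d an XTH unigene held 495139 counts and a beta-D-xylosidase unigene 258488, where the median of the 46 was 6050. In CK 1 d the same unigenes held 8597 and 69954 counts, and the median was 714. In bulk tissue, fewer cells of a type and less RNA per cell cannot be told apart.

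**Figure D1:**
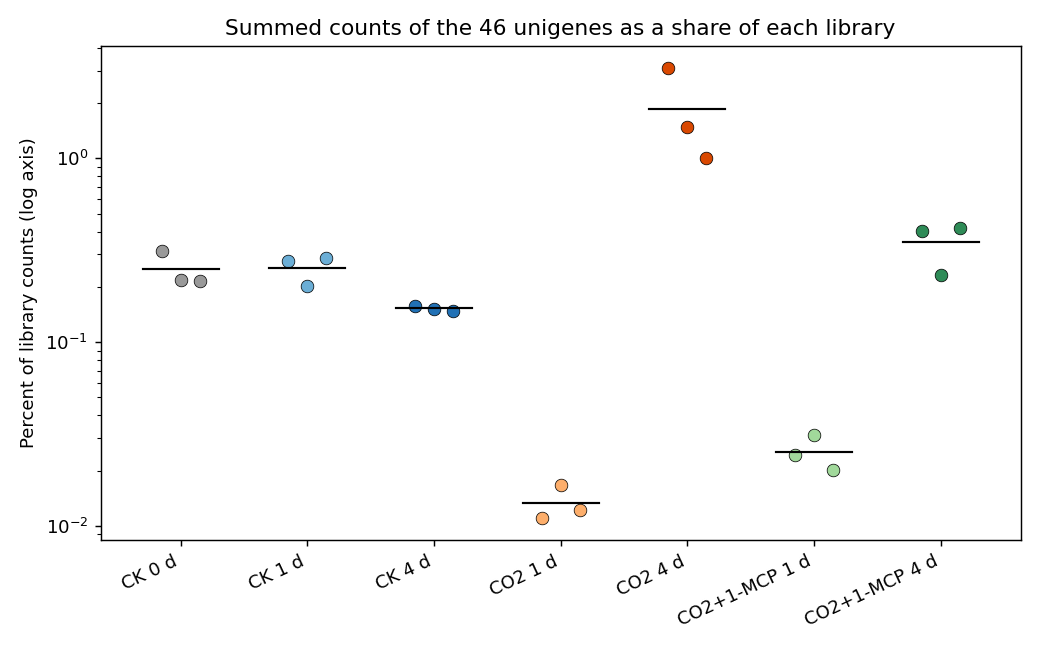
Summed expected counts of the 46 unigenes as a percent of all counts of a library (log axis) in 7 groups; each point is 1 library and each line the mean of 3. CO2 1 d lies at 0.0111% to 0.0166%, CO2+1-MCP 1 d at 0.0201% to 0.0311%, CO2+1-MCP 4 d at 0.231% to 0.417% and CO2 4 d at 1.01% to 3.09%. Unigenes with many counts weigh most in the sum.

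The mean level in CK 1 d was 5.09 to 46 times that in CO2 1 d (median 9.29), and the mean in CO2 4 d was 5.22 to 63.6 times that in CK 4 d (median 9.29), with 0.5 FPKM added to both. Between 1 d and 4 d the means of the CO2 fruit differed by 9.79- to 454-fold (median 66.8). CO2 4 d held the highest of the 7 group means for 42 unigenes. Against CK 0 d, the CO2 4 d mean was more than 2-fold higher for 42, within 2-fold for 3 and more than 2-fold lower for 1. The last was the beta-1,3-glucanase, at 0.408 times CK 0 d. Without library A of CO2 4 d the mean of B and C was still above the CK 4 d mean for all 46, but at least 5-fold above it for 33, with a median of 6.80. In CK fruit, the 1 d mean was within 2-fold of CK 0 d for 42 unigenes and above that for 4, and the 4 d mean was within 2-fold for 34, higher for 2 and lower for 10.

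Unigenes are given below by the number that follows the prefix Cluster-16487, under which the assembly placed 84.1% of all unigenes. The members nearest to the limit on 1 d were an uncharacterized protein unigene (106639, 5.09-fold) and a BAHD acyltransferase (147604, 5.41-fold), and on 4 d a chitinase A1 (100563, 5.22-fold) and a Mucin-21 like unigene (77066, 5.26-fold). Just outside on 1 d were a second polygalacturonase (150596, 4.995-fold) and a hypothetical protein (137346, 4.993-fold), and on 4 d a further beta-D-xylosidase (109954, 4.925-fold) and a UDP-glycosyltransferase (92383, 4.831-fold).

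The 46 unigenes carried 33 distinct NR descriptions, so several may be pieces or close copies of 1 gene. All hits were in plants, 21 of them in kiwifruit (Actinidia chinensis), 6 in persimmon itself and 5 in grapevine (Vitis vinifera). A description here includes the species of the hit, and further NCED and ethylene-overproduction protein 1 unigenes were described by different hits. For 7 descriptions, NCED1, ethylene-overproduction protein 1 and ERF061 among them, every unigene was a member, so a sum over the description meets the rule by construction. When FPKM was summed over all unigenes of each of the other 26 descriptions, 6 met the 5-fold rule, namely XTH10, beta-D-xylosidase, the BAHD acyltransferase, the GDSL esterase/lipase, AUX/IAA4 and the KAS III B like description. Of the descriptions that did not meet it, some had little or no fall at 1 d as a sum. The sum in CK 1 d was 0.884 times that in CO2 1 d for centromere protein like and 0.916 times for ATP synthase subunit b like. It was 1.03 times for TCP11 and 0.615 times for the conserved hypothetical protein, and 1.53 to 14.3 times for the others. Unigene length ran from 238 to 5495 bases with a median of 1055.5. Levels were low at 1 d in CO2: 6 of the 46 had no count in any of the 3 libraries, and 4 had fewer than 30 counts over the 3 libraries of CK 1 d or of CO2 4 d.

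**Figure D2:**
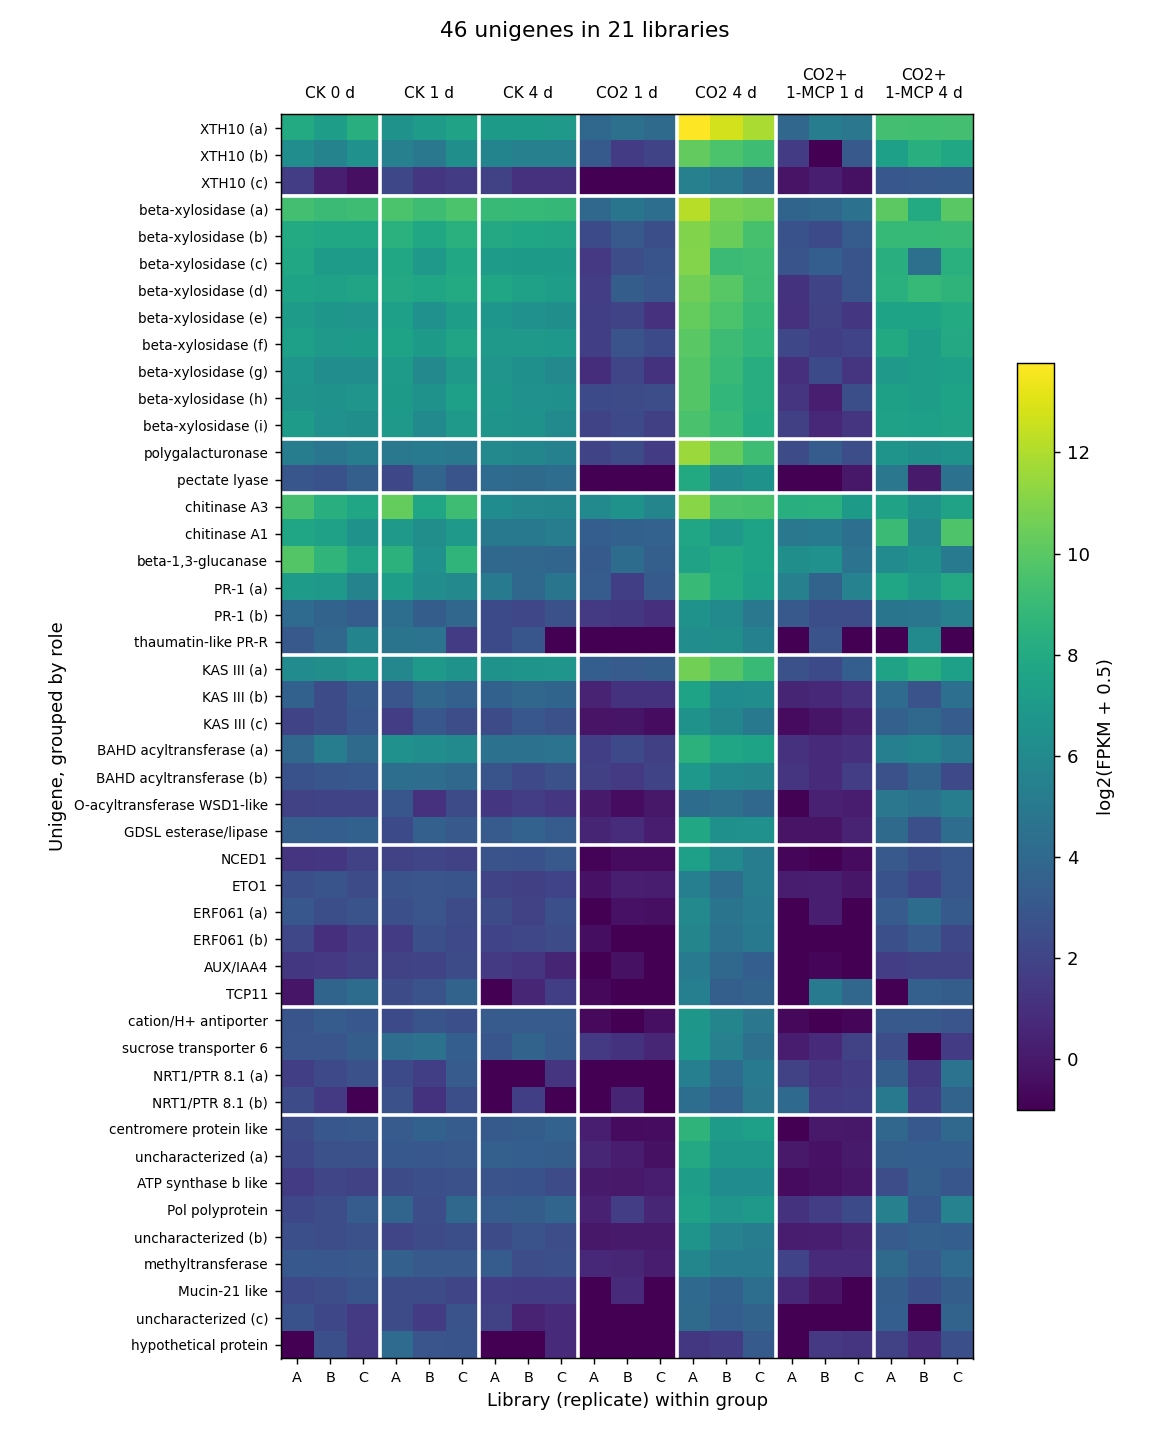
Level of each of the 46 unigenes (rows, by role) in each of the 21 libraries (columns), as log2(FPKM + 0.5) on the colour scale. The columns of CO2 1 d and CO2+1-MCP 1 d are dark for most rows, the columns of CO2 4 d are the brightest for 42 rows by group mean, and library B of CO2+1-MCP 4 d is darker than A and C in single rows such as pectate lyase and beta-xylosidase (c).

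Whether the same unigenes moved in fruit given 1-MCP with CO2 was tested in the 9 libraries that the choice did not use. CO2+1-MCP at 1 d and at 4 d were each compared with CK 0 d, and CO2+1-MCP 4 d with CO2+1-MCP 1 d, by edgeR's quasi-likelihood test over all unigenes, with a call at a Benjamini-Hochberg adjusted p below 0.05 and a change above 5-fold. The treatment and the days since harvest cannot be told apart in the comparisons with CK 0 d. The first and the last comparison share the CO2+1-MCP 1 d libraries, on opposite sides, so a low value there moves both.

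At 1 d in CO2+1-MCP, 31 of the 46 unigenes were called lower than in CK 0 d and 0 higher, where 9.81% of all 59978 unigenes tested were called lower and 10.4% higher. The filter on low counts let 42 of the 46 into the test. Their median log2 fold change was −3.50 (all unigenes −0.06), with a range from −9.90 to 0.72. All 3 CO2+1-MCP 1 d libraries lay below all 3 CK 0 d libraries for 39 of the 46, and for 26.2% of the 62913 unigenes with an NR description and a group mean of at least 1 FPKM, which serve as the background of all such counts below. The 4 unigenes outside the filter were XTH10 (c), the thaumatin-like protein and both NRT1/PTR unigenes, whose adjusted p in a fit without the filter ran from 0.295 to 0.716. That fit called 32 of the 46 lower. The fitted values of −9.90 here and of 9.17 from 1 d to 4 d belong to unigenes without a count in CO2+1-MCP 1 d and are no bounds, and both medians were the same with such unigenes set to a floor of 3 counts.

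From 1 d to 4 d within CO2+1-MCP, 32 of the 46 were called higher and 0 lower, where 6.18% of all 59934 unigenes tested were called higher and 7.80% lower. The median over the 42 unigenes tested was 4.39 (all unigenes 0.03), with a range from −1.48 to 9.17. The 3 libraries of 4 d lay above those of 1 d for 37 of the 46 and for 23.8% of the background unigenes. Without the filter 34 of the 46 were called higher, and the pectate lyase (log2 fold change 6.20, adjusted p = 8.67e-05) and an uncharacterized protein (124985, adjusted p = 3.47e-10) passed. By both comparisons, 28 of the 46 were called lower at 1 d and higher from 1 d to 4 d, and these held 18 of the 33 descriptions. Of all 54636 unigenes tested in both, 4.27% were called in this way. Leaving out single libraries gave 26 to 32 lower calls at 1 d and 24 to 33 higher calls from 1 d to 4 d.

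At 4 d in CO2+1-MCP, 0 of the 46 were called against CK 0 d, where 0.00161% of all 62296 unigenes tested (1 unigene) were called higher and 0% lower. The lowest adjusted p among the 43 unigenes tested was 0.0621. At an unadjusted p below 0.05 there were 21, of which 19 were higher and 2 lower, where 7.60% of all unigenes tested were higher and 3.86% lower at this level. The median log2 fold change was 0.67 (all unigenes −0.01), and the range was −3.15 to 2.86. DESeq2 called 1 higher, the O-acyltransferase WSD1-like unigene (2.84, adjusted p = 6.17e-11), and 1 lower, the beta-1,3-glucanase (−3.16, adjusted p = 0.00698), as did edgeR without the filter. Without library B of CO2+1-MCP 4 d, 2 were called higher, the same O-acyltransferase (2.92, adjusted p = 0.0119) and a Pol polyprotein unigene (2.53, adjusted p = 0.0380). A call that misses the threshold does not show that the levels had returned to those of CK 0 d: group means were within 2-fold of CK 0 d for 25 of the 46, more than 2-fold above for 18 and more than 2-fold below for 3. Of the 46, 20 lay below all CK 0 d libraries at 1 d and above all of them at 4 d, against 4.54% of the background unigenes.

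**Figure D3:**
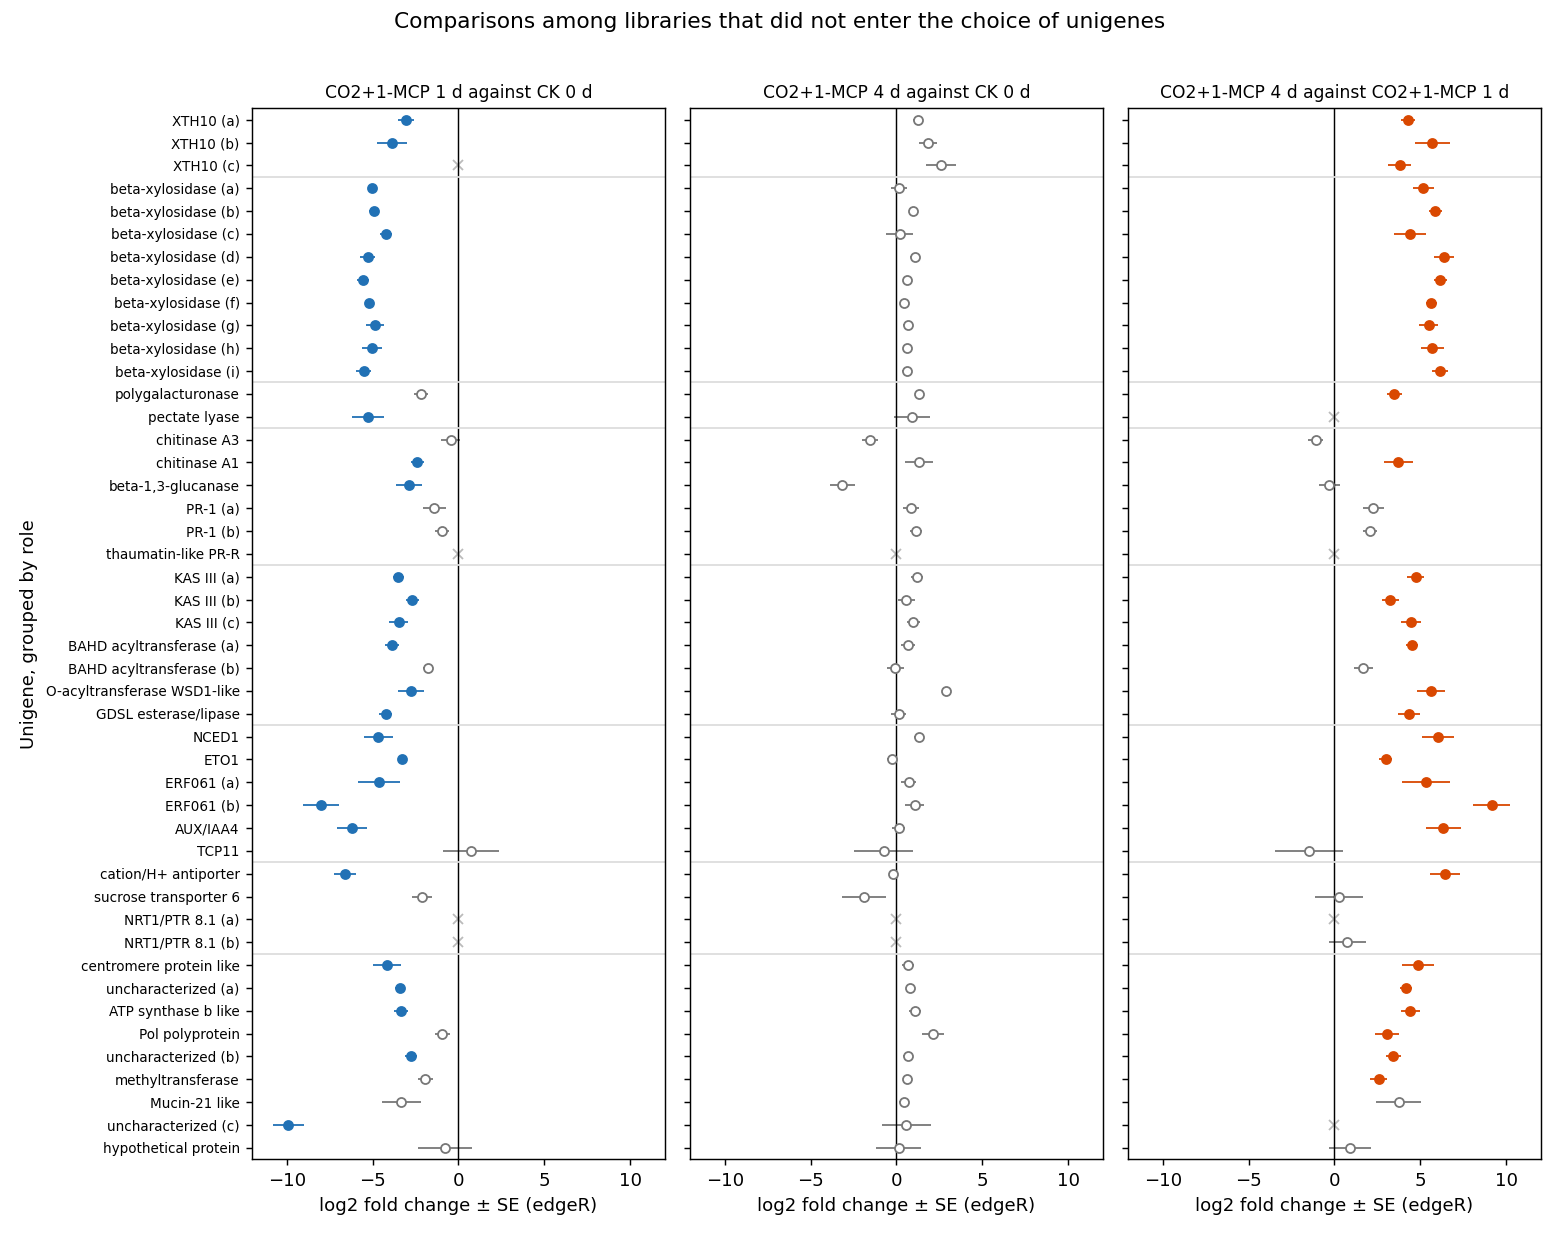
Log2 fold change with its standard error (edgeR, 3 libraries against 3) of each of the 46 unigenes in the 3 comparisons that use none of the libraries of the choice. Filled blue points were called lower (31 in the left panel), filled orange points higher (32 in the right panel), open grey points were not called, and grey crosses at 0 mark unigenes that did not pass the filter on low counts.

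Among enzymes of xyloglucan, 3 unigenes matched the persimmon XTH10. The leading one (115103) held 265, 149.6 and 304 FPKM in the CK 0 d libraries A, B and C, 95.2, 142 and 184 in CK 1 d and 134, 129.7 and 123 in CK 4 d. In CO2 fruit it was at 14.9, 21.6 and 16.4 FPKM at 1 d and at 13922, 6962 and 3783 at 4 d, and in CO2+1-MCP fruit at 14.2, 36.8 and 28.6 at 1 d and 666, 637 and 641 at 4 d. The 4 d libraries of CO2+1-MCP thus lay close together, above every CK library and below every CO2 4 d library, while the highest and lowest CO2 4 d libraries differed more than the CK groups did. Against CK 0 d its log2 fold change in CO2+1-MCP was −3.06 (SE 0.46, adjusted p = 0.00339) at 1 d and 1.23 (SE 0.28, adjusted p = 0.179) at 4 d, and it rose between these days by 4.29 (SE 0.43, adjusted p = 0.00296).

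The short XTH10 piece (128598, 272 bases) followed with means of 70.7 FPKM in CK 0 d, 4.83 in CO2 1 d, 838 in CO2 4 d, 3.61 in CO2+1-MCP 1 d and 234 in CO2+1-MCP 4 d. It was called lower at 1 d (−3.87, SE 0.87, adjusted p = 0.0136) and rose to 4 d by 5.71 (SE 1.02, adjusted p = 0.0127). The third (137474) had no count in the 3 CO2 1 d libraries and 27 in those of CK 1 d, a level at least 7.69-fold higher against a floor of 3 counts over the group. It rose within CO2+1-MCP by 3.80 (SE 0.68, adjusted p = 0.0129). Of all 112 unigenes with an XTH description, 7 of 56 tested were called lower and 14 higher at 1 d in CO2+1-MCP, and 8 of 58 rose and 14 fell from 1 d to 4 d. The 3 members made 77.1% of the summed XTH level in CO2 4 d and 11.8% of it in CK 1 d.

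Among enzymes of xylan and related chains, 9 unigenes were annotated as beta-D-xylosidase, 8 of them with the same kiwifruit hit. The most abundant (109952) held 655, 525 and 569.5 FPKM in CK 0 d, 765, 587 and 781 in CK 1 d and 492, 471 and 452 in CK 4 d. CO2 fruit were at 15.6, 26.2 and 19.8 FPKM at 1 d and at 4560, 1745 and 1528 at 4 d. CO2+1-MCP fruit were at 13.1, 15.5 and 22.6 at 1 d and at 1055, 260.4 and 1033 at 4 d. Every library of both CO2 treatments at 1 d was far below every other library, and library B of CO2+1-MCP 4 d was below the CK range where A and C were above it.

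All 9 xylosidase unigenes fell at 1 d in CO2+1-MCP relative to CK 0 d, with log2 fold changes from −5.55 to −4.22 and adjusted p from 0.000101 to 0.00138. All 9 rose again from 1 d to 4 d, by 4.41 to 6.39, with adjusted p from 0.00114 to 0.0204. At 4 d they stood 0.17 to 1.09 above CK 0 d on the log2 scale, and 0 of the 9 passed (adjusted p 0.142 to 0.960). Unigene 113280 was at 317, 21.7 and 333 FPKM in CO2+1-MCP 4 d A, B and C, and its standard error at 4 d was 0.80. Their means in CO2 4 d were 2.55 to 4.70 times those in CO2+1-MCP 4 d.

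The fall at 1 d was shared by other xylosidase unigenes. Of 82 with a xylosidase description, not all of which need be beta-D-xylosidases, 24 met the 1 d condition of the choice. The 4 d condition was met by 9, and these were the 9 members. In CO2+1-MCP 1 d, 24 of 46 tested were called lower and 0 higher, and from 1 d to 4 d 24 of 46 rose and 0 fell. Summed over the 82, the mean level was 2860 FPKM in CK 0 d, 3400 in CK 1 d, 2450 in CK 4 d, 258 in CO2 1 d, 12700 in CO2 4 d, 283 in CO2+1-MCP 1 d and 4470 in CO2+1-MCP 4 d.

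Of the pectin enzymes, the polygalacturonase member (150591) was at 27.2 to 37.3 FPKM in CK 0 d, 29.0 to 33.8 in CK 1 d and 43.7 to 60.5 in CK 4 d. Its CO2 libraries A, B and C held 3.63, 4.89 and 2.41 FPKM at 1 d and 3018, 1247 and 583 at 4 d. Its CO2+1-MCP libraries held 4.95, 9.42 and 5.21 at 1 d and 100.6, 80.9 and 92.8 at 4 d. CO2+1-MCP 4 d was above CK on every day without overlap, and 17.6-fold below CO2 4 d by the means. Its log2 fold change at 1 d in CO2+1-MCP was −2.16 (SE 0.41, adjusted p = 0.00728), which is under 5-fold and was not called, and it rose to 4 d by 3.49 (SE 0.45, adjusted p = 0.00550).

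The pectate lyase unigene (85548), named by its NR hit alone, had no count in CO2 1 d and 2 counts in CO2+1-MCP 1 d. It was at 6.0 to 10.6 FPKM in CK 0 d, 4.03 to 13.4 in CK 1 d, 16.5 to 18.6 in CK 4 d and 245.7, 69.4 and 96.8 in CO2 4 d. In CO2+1-MCP 4 d the libraries A, B and C held 28.6, 0.55 and 23.3 FPKM, so B was near the level of 1 d and A and C were above CK. Its log2 fold change at 1 d was −5.27 (SE 0.94, adjusted p = 0.00579), and its share of counts in CK 0 d was 48.3 times those in CO2+1-MCP 1 d (95% counting interval 13.0 to 403). It was a minor piece of its family. All 67 pectate lyase unigenes summed to 1200 FPKM in CK 0 d, 69.6 in CO2 1 d, 6420 in CO2 4 d, 65.7 in CO2+1-MCP 1 d and 1400 in CO2+1-MCP 4 d, of which it made 2.14% in CO2 4 d. The 204 polygalacturonase unigenes had a sum of 1040 FPKM in CK 1 d and 1660 in CO2 1 d, and 22 of 78 tested were called higher in CO2+1-MCP 1 d against 8 lower.

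**Figure D4:**
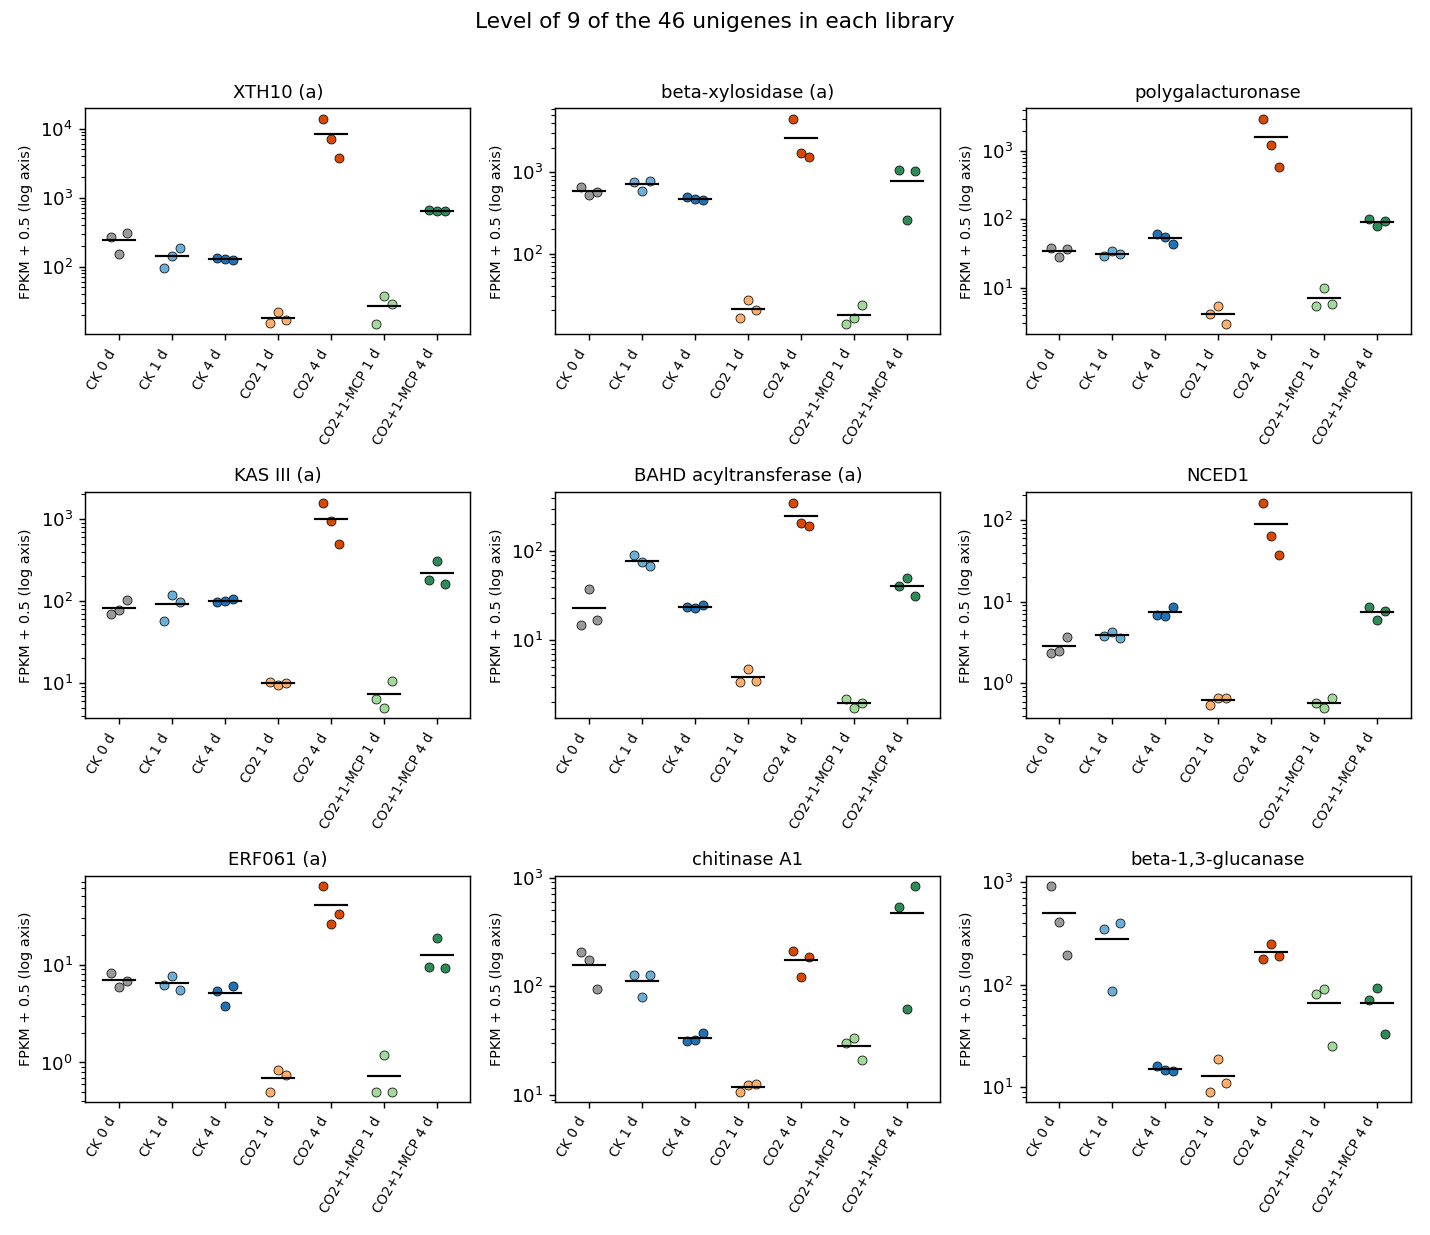
Level of 9 of the 46 unigenes in each library (FPKM + 0.5, log axis), by group; points are libraries A, B and C from left to right and lines are means of 3. XTH10 (a), polygalacturonase and NCED1 show CO2 4 d far above CO2+1-MCP 4 d, while chitinase A1 shows libraries A and C of CO2+1-MCP 4 d above all CO2 4 d libraries.

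Among lipid enzymes, 3 unigenes matched 3-oxoacyl-[acyl-carrier-protein] synthase 3 (KAS III), which makes the first condensation of fatty acid synthesis in plastids. The most abundant (105710) was at 68.4, 77.7 and 102 FPKM in CK 0 d, 56.0, 119 and 96.6 in CK 1 d and 96.6, 100.7 and 105 in CK 4 d. It held 9.94, 9.01 and 9.69 FPKM in CO2 1 d, 1583, 939 and 491 in CO2 4 d, 5.93, 4.49 and 10.2 in CO2+1-MCP 1 d and 180.4, 311 and 159 in CO2+1-MCP 4 d. CO2 and CO2+1-MCP overlapped at 1 d, and CO2+1-MCP 4 d lay between CK and CO2 4 d without overlap. All 3 KAS III members fell at 1 d (−3.51 to −2.68, adjusted p 0.000609 to 0.00395) and rose to 4 d (3.26 to 4.73, adjusted p 0.00296 to 0.00775). Of 13 unigenes with this description, 8 of 9 tested were called lower at 1 d and 8 of 10 rose to 4 d.

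Both BAHD acyltransferase unigenes had their best Swiss-Prot match in DCR, a protein needed for cutin in Arabidopsis. The first (147606) was at 14.3, 36.6 and 16.5 FPKM in CK 0 d and at 67.6 to 89.7 in CK 1 d, among the 4 unigenes that stood more than 2-fold higher in CK 1 d. It held 2.85 to 4.22 FPKM in CO2 1 d, 1.22 to 1.67 in CO2+1-MCP 1 d, 352, 208 and 192 in CO2 4 d and 40.2, 50.1 and 30.8 in CO2+1-MCP 4 d. It fell by 3.86 (SE 0.42, adjusted p = 0.00124) at 1 d in CO2+1-MCP and rose by 4.51 (SE 0.35, adjusted p = 0.00160) to 4 d. For the second (147604) the values were −1.76 (SE 0.30, adjusted p = 0.00510) and 1.69 (SE 0.57, adjusted p = 0.0805), neither of them called. The summed peel epidermis markers moved in the same order over the CO2 4 d libraries, at 1110, 412 and 189 FPKM, and their part in these levels was not tested.

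A GDSL esterase/lipase (177349) was at 10.3 to 11.5 FPKM in CK 0 d, 0.62 to 1.30 in CO2 1 d, 0.37 to 0.87 in CO2+1-MCP 1 d and 228, 85.0 and 88.2 in CO2 4 d, and its CO2+1-MCP 4 d libraries held 16.8, 5.51 and 19.2. It fell by 4.24 (SE 0.37, adjusted p = 0.000616) and rose by 4.36 (SE 0.63, adjusted p = 0.00725). The O-acyltransferase (141762), whose best Swiss-Prot match is the Arabidopsis wax ester synthase WSD1, stood apart from the other lipid unigenes at 4 d. Its CO2+1-MCP 4 d libraries, at 28.4, 22.5 and 37.9 FPKM, all lay above those of CO2 4 d, at 18.2, 21.6 and 14.8. It was at 3.15 to 3.65 FPKM in CK 0 d and 0.04 to 0.76 in CO2+1-MCP 1 d, and it rose between 1 d and 4 d by 5.63 (SE 0.81, adjusted p = 0.00715).

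Of the hormone enzymes and regulators, NCED1 (54813), an enzyme of abscisic acid synthesis, was at 1.83, 2.02 and 3.20 FPKM in CK 0 d, 3.29, 3.73 and 3.13 in CK 1 d and 6.33, 6.20 and 8.17 in CK 4 d. CO2 fruit held 0.05, 0.17 and 0.17 at 1 d and 163, 63.7 and 36.6 at 4 d. CO2+1-MCP fruit held 0.08, 0.00 and 0.17 at 1 d and 8.22, 5.40 and 7.16 at 4 d. At 4 d the CO2+1-MCP libraries overlapped those of CK 4 d, and all CO2 4 d libraries were above both. Its log2 fold change in CO2+1-MCP was −4.68 (SE 0.84, adjusted p = 0.00599) at 1 d against CK 0 d and 6.03 (SE 0.93, adjusted p = 0.00859) from 1 d to 4 d. Over all 7 NCED unigenes the mean sum was 4.02 FPKM in CK 1 d and 0.313 in CO2 1 d. It was 8.55 in CK 4 d and 147 in CO2 4 d, of which NCED1 made 59.8%.

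Ethylene-overproduction protein 1 (102143, ETO1), which in Arabidopsis limits ethylene synthesis by marking ACC synthase for breakdown, was the longest member with 5495 bases. It was at 4.76 to 6.66 FPKM in CK 0 d, 6.27 to 6.96 in CK 1 d, 2.97 to 3.64 in CK 4 d and 0.32, 0.69 and 0.59 in CO2 1 d. The CO2 4 d libraries held 41.2, 18.5 and 37.7 and those of CO2+1-MCP 4 d 6.06, 3.48 and 7.17, inside the range of CK 0 d and 1 d in library A only. It fell at 1 d by 3.26 (SE 0.27, adjusted p = 0.000525) and rose by 2.99 (SE 0.39, adjusted p = 0.00558). Over all 5 unigenes of this name the mean sum was 21.3 FPKM in CK 1 d and 4.93 in CO2 1 d. It was 22.2 in CK 4 d and 47.4 in CO2 4 d. The member made 31.2% of the sum in CK 1 d and 68.5% in CO2 4 d, so the family rose less than the member.

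Both unigenes annotated as ERF061, an AP2/ERF transcription factor, were members, and they are all unigenes of that name. The first (89826) was at 7.69, 5.42 and 6.26 FPKM in CK 0 d, 0.00, 0.34 and 0.25 in CO2 1 d, 62.3, 25.6 and 32.4 in CO2 4 d, 0.00, 0.69 and 0.00 in CO2+1-MCP 1 d and 8.99, 18.0 and 8.71 in CO2+1-MCP 4 d. The second (89828) had 0 counts in CO2+1-MCP 1 d against 100 in CK 0 d and 225 in CO2+1-MCP 4 d, so its levels there were at least 31.0-fold and 73.8-fold higher against a floor of 3 counts over the group. For the first the fall was 4.63 on the log2 scale (SE 1.22, adjusted p = 0.0235) and the rise 5.33 (SE 1.40, adjusted p = 0.0396). Of all unigenes with an ERF description, 216 were tested at 1 d in CO2+1-MCP and 201 from 1 d to 4 d. Of these 216, 72 were called higher and 13 lower, and of the 201, 9 rose and 68 fell.

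AUX/IAA4 (38323), named for a family of repressors of the auxin response, had 1 count in CO2+1-MCP 1 d against 117 in CK 0 d, a ratio of 108 (95% counting interval 19.1 to 4310). It was at 2.14 to 3.04 FPKM in CK 0 d, 34.5, 15.7 and 10.1 in CO2 4 d and 2.69 to 3.32 in CO2+1-MCP 4 d. It was called lower at 1 d (−6.19, SE 0.87, adjusted p = 0.00285) and higher from 1 d to 4 d (6.33, SE 1.02, adjusted p = 0.00971). The transcription factor TCP11 (116978) differed from the others of this group. Its libraries varied within groups, from 0.38 to 18.5 FPKM in CK 0 d and at 0.00, 32.1 and 14.2 in CO2+1-MCP 1 d, and it passed in neither comparison (0.72, SE 1.64, adjusted p = 0.757 and −1.48, SE 1.99, adjusted p = 0.655).

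Of the carriers, the cation/H+ antiporter (146469) was at 6.73, 9.15 and 7.48 FPKM in CK 0 d, 4.45 to 6.55 in CK 1 d and 8.78 to 9.10 in CK 4 d. It was at 0.15, 0.00 and 0.27 FPKM in CO2 1 d, 0.12, 0.00 and 0.10 in CO2+1-MCP 1 d, 111.4, 51.5 and 28.1 in CO2 4 d and 8.14, 8.38 and 6.94 in CO2+1-MCP 4 d. Both treatments were thus near 0 at 1 d, and CO2+1-MCP 4 d lay inside the CK 0 d range. It fell by 6.61 (SE 0.65, adjusted p = 0.000911) and rose by 6.42 (SE 0.87, adjusted p = 0.00616). Its description is held by 21 unigenes, whose summed level differed only 1.89-fold between CK 1 d and CO2 1 d.

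Sucrose transporter 6 (143672) showed no call in CO2+1-MCP. At 1 d against CK 0 d its log2 fold change was −2.12 (SE 0.56, adjusted p = 0.0236), which passes in p but is under 5-fold. Its libraries held 0.61, 1.29 and 3.22 FPKM at 1 d and 5.19, 0.00 and 2.51 at 4 d, against 6.79 to 9.76 in CK 0 d and 109.6, 42.2 and 21.5 in CO2 4 d. The change from 1 d to 4 d was 0.27 (SE 1.41, adjusted p = 0.917), with library B at 0. Both NRT1/PTR 8.1 unigenes, of a family of nitrate and peptide carriers, are short (335 and 328 bases) and were at 0.00 to 5.82 FPKM in CK 0 d and 11.9 to 41.6 in CO2 4 d. At 1 d in CO2+1-MCP they held 1.96 to 16.0 FPKM and overlapped CK 0 d. The filter let 1 of them into 1 comparison, from 1 d to 4 d, with a log2 fold change of 0.76 (SE 1.05, adjusted p = 0.662).

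The 6 defence unigenes are named chitinase, beta-1,3-glucanase or pathogenesis-related protein. Of these, 2 of 5 tested were called lower at 1 d in CO2+1-MCP, and 1 of 5 rose to 4 d. The lower calls were for chitinase A1 and the beta-1,3-glucanase. Chitinase A1 (100563), an enzyme that cuts the chitin of fungal walls, was at 205, 175 and 92.8 FPKM in CK 0 d, 125.6, 78.9 and 127 in CK 1 d and 30.7, 31.3 and 36.6 in CK 4 d. It was at 10.1, 11.7 and 11.98 in CO2 1 d, 212, 122 and 187 in CO2 4 d, 29.8, 33.0 and 20.2 in CO2+1-MCP 1 d and 537, 60.6 and 827 in CO2+1-MCP 4 d. It was the lone defence unigene called both ways, with −2.41 (SE 0.38, adjusted p = 0.00409) at 1 d and 3.72 (SE 0.86, adjusted p = 0.0257) to 4 d. Libraries A and C of CO2+1-MCP 4 d were above all CO2 4 d libraries and B was below them.

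Chitinase A3 (91028) was at 668, 316 and 215 FPKM in CK 0 d, 1224, 212 and 581 in CK 1 d, 55.4 to 73.4 in CK 4 d, 53.1 to 94.4 in CO2 1 d and 2227, 740.4 and 714 in CO2 4 d. At 1 d in CO2+1-MCP it held 309, 332 and 131 FPKM, with A and B inside the CK 0 d range and C below it (−0.46, SE 0.54, adjusted p = 0.536), and at 4 d 184.7, 90.7 and 182. The change between these days was −1.10 (SE 0.44, adjusted p = 0.127). Chitinases as a whole took 19.0% to 25.9% of the counts in the CK libraries, 4.22% to 4.36% in CO2 1 d and 1.90% to 5.32% in CO2 4 d, and the 2 members made 0.0739% of the summed chitinase level in CK 1 d.

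The beta-1,3-glucanase (116177), which cuts glucans of fungal walls and callose, was at 909, 409 and 196 FPKM in CK at 0 d, 352, 86.4 and 397 at 1 d and 15.4, 14.1 and 13.8 at 4 d. CO2 fruit held 8.42, 18.2 and 10.5 at 1 d and 179, 247 and 191 at 4 d, where A and C were below all CK 0 d libraries. In CO2+1-MCP it was at 80.7, 89.3 and 24.4 at 1 d and 69.7, 92.5 and 32.6 at 4 d. It was called lower at 1 d (−2.86, SE 0.75, adjusted p = 0.0229), and the change to 4 d was −0.30 (SE 0.62, adjusted p = 0.777).

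PR-1 (a) (103776), whose product accumulates in infected plants, held 143, 125.3 and 47.3 FPKM in CK 0 d, 2.84 to 9.35 in CO2 1 d and 518, 260.4 and 162 in CO2 4 d. CO2+1-MCP was at 41.8, 12.7 and 45.9 at 1 d and 210.5, 128 and 242 at 4 d, overlapping CO2 4 d. Neither PR-1 unigene was called, at 1 d with −1.40 (SE 0.66) and −0.95 (SE 0.40) or to 4 d with 2.25 (SE 0.61, adjusted p = 0.0423) and 2.07 (SE 0.41, adjusted p = 0.0165), which pass in p but stay under 5-fold. A thaumatin-like unigene (110917) is 238 bases long and rests on 8 counts over the 3 CK 1 d libraries and 30 over those of CO2 4 d, so its FPKM of 43.9 to 77.7 in CO2 4 d is imprecise.

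The remaining 9 unigenes had no role that could be named with certainty. A centromere protein like unigene (73712) was at 4.84, 7.59 and 8.06 FPKM in CK 0 d, 0.66, 0.17 and 0.20 in CO2 1 d, 389, 142 and 160 in CO2 4 d, 0.00, 0.51 and 0.45 in CO2+1-MCP 1 d and 13.9, 8.03 and 15.4 in CO2+1-MCP 4 d. It fell by 4.17 (SE 0.82, adjusted p = 0.00815) and rose by 4.86 (SE 0.92, adjusted p = 0.0148). Its description is held by 21 unigenes, whose sum in CK 1 d was 0.884 times that in CO2 1 d. A pair with neighbouring numbers, an uncharacterized protein (63804) and an ATP synthase subunit b like unigene (63805), fell by 3.38 (SE 0.29, adjusted p = 0.000565) and 3.35 (SE 0.42, adjusted p = 0.00189) and rose by 4.15 (SE 0.35, adjusted p = 0.00204) and 4.43 (SE 0.56, adjusted p = 0.00518). The description of 63805 is held by 4 unigenes, whose sum in CK 1 d was 0.916 times that in CO2 1 d. Uncharacterized protein 106639 fell by 2.76 (SE 0.34, adjusted p = 0.00180) and rose by 3.42 (SE 0.43, adjusted p = 0.00515).

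The uncharacterized protein 124985 had 0 counts in all 6 libraries of CO2 1 d and CO2+1-MCP 1 d and 355 in CK 0 d, a level at least 110-fold higher against a floor of 3 counts over CO2+1-MCP 1 d. At 4 d in CO2+1-MCP it was at 10.1, 0.00 and 12.4 FPKM, with B again at 0. A demethylmenaquinone methyltransferase unigene (95882) had a log2 fold change of −1.93 (SE 0.42, adjusted p = 0.0116) at 1 d, under 5-fold, and was called higher to 4 d (2.57, SE 0.51, adjusted p = 0.0163). The Pol polyprotein unigene (77710), of a retrotransposon, did not pass at 1 d (−0.94, SE 0.45, adjusted p = 0.144) and rose to 4 d by 3.08 (SE 0.70, adjusted p = 0.0244), while 1762 unigenes share its description. The Mucin-21 like unigene (−3.32, SE 1.13, adjusted p = 0.0564 at 1 d) and the conserved hypothetical protein (140450, −0.79, SE 1.56, adjusted p = 0.720) passed in neither comparison.

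The place of CO2+1-MCP between the other treatments of the same day was read on the log2(FPKM + 0.5) scale, with 0 for the CK mean and 1 for the CO2 mean. Since CO2 and CK were chosen to lie far apart, a further group tends to fall between them, and no test was made. At 1 d the median place was 0.98, and 39 of the 46 unigenes were nearer to CO2 than to CK. At 4 d it was 0.34, and 13 were nearer to CO2. Of the 46, 32 were nearer to CO2 at 1 d and nearer to CK at 4 d, among them all 9 xylosidases, both pectin unigenes, 6 of the 7 lipid unigenes and 5 of the 6 hormone unigenes. In 36 of the 46, all CO2 4 d libraries were above all CO2+1-MCP 4 d libraries, and the reverse held for 1, the O-acyltransferase, where the background gave 6.88% and 7.90%. CO2+1-MCP 4 d was above all CK 4 d libraries in 25 and below all of them in 2, where the background gave 15.7% and 8.25%. The choice used the CO2 4 d and CK 4 d libraries, so nothing is read from these counts. The means in CO2 4 d were 0.366 to 19.0 times those in CO2+1-MCP 4 d (median 3.84), and without library A of CO2 4 d the median was 2.86.

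The defence unigenes had other places. At 1 d they lay between 0.41 and 0.61 and at 4 d between 0.30 and 1.61, and 5 of the 6 were nearer to CO2 at 4 d. The xylosidases lay between 0.87 and 1.16 at 1 d and between 0.24 and 0.46 at 4 d. Their CK 4 d means were 0.785 to 0.962 times those of CK 0 d, against 0.0296 to 0.387 times for the defence unigenes. The place at 4 d is scaled on CK 4 d, and the part of the fall in CK fruit in it was not tested. In the plot of places, the defence unigenes, TCP11 and both NRT1/PTR unigenes lie outside the lower right field, which holds the main group. Also outside it are XTH10 (b), the O-acyltransferase, the Mucin-21 like unigene, the conserved hypothetical protein and the uncharacterized protein 124985. These last unigenes were nearer to CO2 on both days, so places outside the field were not particular to defence unigenes and carriers.

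**Figure D5:**
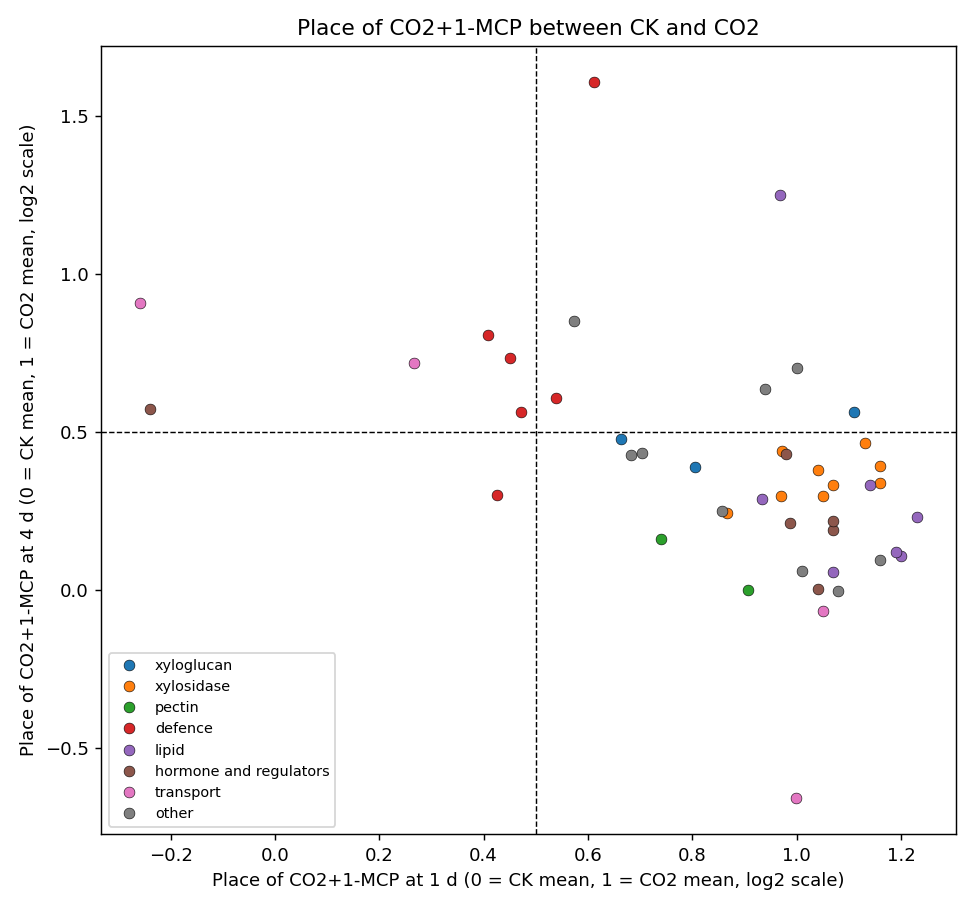
Place of the CO2+1-MCP mean between the CK mean (0) and the CO2 mean (1) of the same day on the log2(FPKM + 0.5) scale, at 1 d (x axis) and at 4 d (y axis); each point is 1 of the 46 unigenes, coloured by role, and dashed lines mark 0.5. In the plot 32 points lie in the lower right field, nearer to CO2 at 1 d and nearer to CK at 4 d, and 6 lie in the upper left field.

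The 1413 unigenes that met only the 1 d condition and the 1485 that met only the 4 d condition give the background of each condition by itself. In CO2+1-MCP 1 d against CK 0 d, 73.1% of the tested unigenes of the 1 d condition alone were called lower, against 73.8% of the tested members. From 1 d to 4 d, 59.1% of the former and 76.2% of the latter were called higher, and neither difference was tested. Of the unigenes of the 4 d condition alone, 43.4% were called higher and 5.23% lower at 1 d in CO2+1-MCP, and 12.5% rose and 22.0% fell to 4 d. The median place at 4 d was 0.34 both for the members and for the unigenes of the 4 d condition alone, of which 35.1% were nearer to CO2. The members were already present in CK 0 d, with a median log2(FPKM + 0.5) of 3.10, near the 3.0 of the 1 d condition alone and above the 0.60 of the 4 d condition alone. The 1 d condition requires a minimum level in CK 1 d, and 42 members had CK 1 d within 2-fold of CK 0 d. The higher level than in the 4 d condition alone thus largely follows from the choice.

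Lists of unigenes by annotation words give a partial background of these pathways. None of the 9 xylosidase members is in the cell wall list, and all 3 KAS III members fell into the transport list by the word carrier, so these lists do not match the roles used above. Of 712 cell wall unigenes tested, 169 (23.7%) were called lower and 122 (17.1%) higher at 1 d in CO2+1-MCP, and of 713 tested 140 (19.6%) rose and 100 (14.0%) fell to 4 d. Of 991 lipid unigenes, 129 were lower and 75 higher at 1 d, and of 999, 90 rose and 72 fell. Of 770 defence unigenes, 68 were lower and 64 higher, and of 763, 49 rose and 51 fell. Ethylene unigenes were called higher in 25 of 90 cases and lower in 10 at 1 d, and then 6 of 87 rose and 11 fell. Auxin unigenes gave 54 of 381 lower and 43 higher, and then 35 of 380 rose and 40 fell. Transport unigenes gave 364 of 2239 lower and 192 higher at 1 d, and 222 of 2214 rose and 132 fell to 4 d. Against CK 0 d at 4 d, 1 cell wall unigene was called higher and no other unigene of these lists was called.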

How the data were processed

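RNA-seq libraries of persimmon flesh, 3 per group, were analysed from the values the authors deposited. The authors assembled the reads with Trinity and annotated the unigenes; per the labels RSEM was among their tools, with its role not given. The deposited expected counts are estimated reads per unigene, not normalized, and were rounded. The deposited FPKM were normalized by the authors for length and depth. The members and lists were chosen with earlier results of these data known, and roles and families were sorted by hand after the members' values were seen.

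Counts were fitted with edgeR 4.0.16 (R 4.3.3): filterByExpr, TMM factors, quasi-likelihood F test, 2 groups (6 libraries) per fit, called at an adjusted p (Benjamini-Hochberg over all unigenes tested) below 0.05 and above 5-fold. The script was tested on simulated data. P-values measure the spread between 3 libraries. Levels are given as FPKM, and folds of levels have 0.5 FPKM added. TMM factors of 21 libraries moved the median log2 ratio of CO2+1-MCP 4 d to CK 4 d by −0.18 and the other 3 ratios to CK of the day by at most 0.08. A unigene without counts was set against a floor of 3 counts over its group; intervals and floors cover counting error only.

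Named unigenes were the 20 with the highest group mean, up to 3 per annotation list, up to 4 called per comparison and direction with at least 30 counts, and those nearest to the limits; 12 members outside this rule are named to complete their groups and this was decided with their values known. The alternatives tried were a 2-fold threshold, RLE scaling, fits on unfiltered counts, all 9 libraries of these groups fitted together, a block for the library letter, DESeq2 1.42.0, each library left out, and other settings of the choice. Tables and plots were made in Python 3.11.15 (pandas 2.3.3, numpy 2.4.6, matplotlib 3.10.9), and counts were read in R with the package data.table (1.17.8). No sequences were used here.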

Additional observations from a re-analysis of the deposited data

Results flagged for a closer look

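In CO2+1-MCP fruit, 20 of the 46 unigenes lay below all CK 0 d libraries at 1 d and above all of them at 4 d, so that the libraries of the 2 days stood on opposite sides of CK 0 d. The same held for 4.54% of the 62913 unigenes with an NR description and a group mean of at least 1 FPKM. They include XTH10 (a) and (b), 6 of the 9 xylosidases, the polygalacturonase, NCED1, both ERF061 unigenes, the O-acyltransferase and KAS III (a) and (c). Against CK 0 d, 0 of the 46 were called at 4 d, while the direct test of 4 d against 1 d called 32 higher.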

How the results depend on the processing

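At 1 d against CK 0 d, between 30 and 35 of the 46 unigenes were called lower under the 6 settings tried beside single libraries left out (31 as reported), and 26 to 32 with each library left out. All unigenes called there went from 12145 to 21380 at a 2-fold threshold, 19224 without the filter and 18521 with DESeq2. From 1 d to 4 d, the 46 gave 23 higher calls with the replicate block and 32 to 35 under the other settings, and 24 to 33 with each library left out, and all unigenes called went from 8383 to 15041 without the filter, 14379 with DESeq2, 2508 with the replicate block, and from 3290 (without CO2+1-MCP 1 d A) to 11860 (without CO2+1-MCP 4 d B) with each library left out. At 4 d against CK 0 d, all unigenes called went from 1 to 0 with RLE factors and with the replicate block, 355 without the filter, 193 with 9 libraries in 1 fit and 1207 with DESeq2, and from 0 to 389 (without CO2+1-MCP 4 d B) with each library left out. Of the 46, 1 was then called lower and 1 higher without the filter and with DESeq2, and 0 to 2 higher with each library left out. The cause was not tested. Same-letter libraries deviated together with r of 0.002 to 0.135, and libraries of different letters with r of −0.109 to 0.08. The labels do not say whether the letters pair the samples. Whether the calls lost under the replicate block are weaker effects was not tested.

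The choice itself gave 110 unigenes with 0.1 and 30 with 1 FPKM added, 178 at 3-fold, 7 at 10-fold, 58 on TMM-rescaled FPKM, 15 descriptions when summed, and 36 (without CO2 4 d A) to 55 with each library left out. Directions were followed for the 34 unigenes named by rule, at 1 d against CK 0 d and from 1 d to 4 d. They turned for 4 of these unigenes, in comparisons in which they were not called. The other 12 members and the comparison of 4 d with CK 0 d are not covered by this count. Chitinase A3 at 1 d ranged from −0.8 to 0.13 with each library left out, and TCP11 from −0.51 to 1.35. From 1 d to 4 d, the beta-1,3-glucanase ranged from −0.76 to 0.13 (0.05 without CO2+1-MCP 1 d B) and sucrose transporter 6 from −0.75 to 1.05 (−0.20 without CO2+1-MCP 1 d A), and the latter gave −0.76 with the replicate block. With 3 libraries a group and low counts at 1 d, small differences were not detectable, and unigenes of 1 description may share reads.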
